A study of Saccharomyces cerevisiae with 4 samples.

Results

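Transcripts of 36 genes that act in protein folding, N-glycosylation and O-mannosylation in the endoplasmic reticulum (ER) were compared between wild-type 59A and its sch9-deleted mutant. The genes were taken from a list of names, and all 36 had a probe on the array, 34 under the listed symbol and 2 under another, *FKB2* as *FPR2* and *ALG3* as *RHK1*. They are 36 of the 6226 features tested. 59A is a haploid strain derived from a spore of the wine yeast EC1118 (*Saccharomyces cerevisiae*), and in the mutant the *SCH9* open reading frame, which encodes a protein kinase of nutrient signalling downstream of TOR, was replaced by a loxP-KanMX-loxP cassette that confers resistance to G418. How many independent mutant clones were grown was not stated. Both strains fermented a synthetic must with 230 g/L of glucose and fructose, 142 mg/L assimilable nitrogen and 5% lipid factors, under anaerobic conditions at 24°C, according to the labels, and the methods also name a medium with less nitrogen for the array cultures. There were 4 one-colour arrays, 2 per strain, which the labels call biological replicates 1 and 2. The study asked how an imbalance of nitrogen and lipids leads to yeast cell death. It used the arrays to look for targets of Sch9p that may protect against it. RNA was taken at the same CO2 production in both strains, and the paper reports a higher viability of the mutant in this medium.

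Proteins that enter the ER are folded there by chaperones such as Kar2p, the Hsp70 of the ER lumen, and are stabilised by disulfide bonds that Pdi1p forms with oxidising power from Ero1p. Many of them receive an N-glycan, which is built step by step on the lipid carrier dolichol by the Alg proteins and moved to the protein by oligosaccharyltransferase, while the Pmt proteins attach mannose to serine and threonine. When unfolded proteins accumulate, the sensor Ire1p splices the messenger of the transcription factor Hac1p, which then induces many ER genes. Mannoproteins of the yeast cell wall carry both kinds of glycan.

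The values are log2 intensities, normalised by quantiles between the arrays, and a log FC is the mutant mean minus the wild-type mean on that scale, so that a change is relative to the rest of the RNA on the array. In these cultures fewer cells with a transcript and less of it per cell cannot be told apart. A gene passed the test at an adjusted p under 0.05 (limma, adjusted over all features). *SCH9*, the deleted gene, read 8.72 and 8.67 in wild-type replicates 1 and 2 and 5.81 and 5.67 in those of the mutant; the probe was thus dim in the strain labelled as deleted. Array medians were between 8.52 and 8.53, the differences between replicates had a standard deviation of 0.236 in 59A and 0.135 in the mutant over all features, and with 4 arrays the precision is limited throughout.

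The ER genes went both ways and most of them moved little. Of the 36 genes 4 were lower and 5 higher in the sch9 mutant, and 27 did not pass. That is 25% of the genes, against 26.7% of all features, with 11.1% lower against 12.1% and 13.9% higher against 14.6%, so the share that passed was near that of the arrays as a whole. The lower ones were *CAX4*, *ERO1*, *ALG5* and *OST2* and the higher ones *PDI1*, *PMT6*, *IRE1*, *OST4* and *ALG7*, and each functional group held at least 1 of them. At the fold criterion of the methods, a log FC above 1 or below -1, *CAX4* alone passed, whereas 3.82% of all features did, 1.64% lower and 2.18% higher. The median log FC was 0.09 over the 36 genes and -0.01 over all features, the range was from -1.02 to 0.52, and the median size of the log FC was 0.18 against 0.19. Both mutant arrays lay on the same side of both wild-type arrays in 31 of the 36 genes, or 86.1%, against 69.5% of all features. The mutant was the higher in 20 of them (55.6% of the 36 genes against 33.7% of all features) and the lower in 11 (30.6% against 35.8%). No call among the 36 genes held when either mutant array was left out, and the share over all features fell as well. In those fits the residual variance came from the 2 wild-type arrays alone. The log FC of *CAX4*, the lowest gene, was -1.30 without mutant replicate 1 and -0.75 without mutant replicate 2. That of *PDI1*, the highest, was 0.63 and 0.42.

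**Figure D1:**
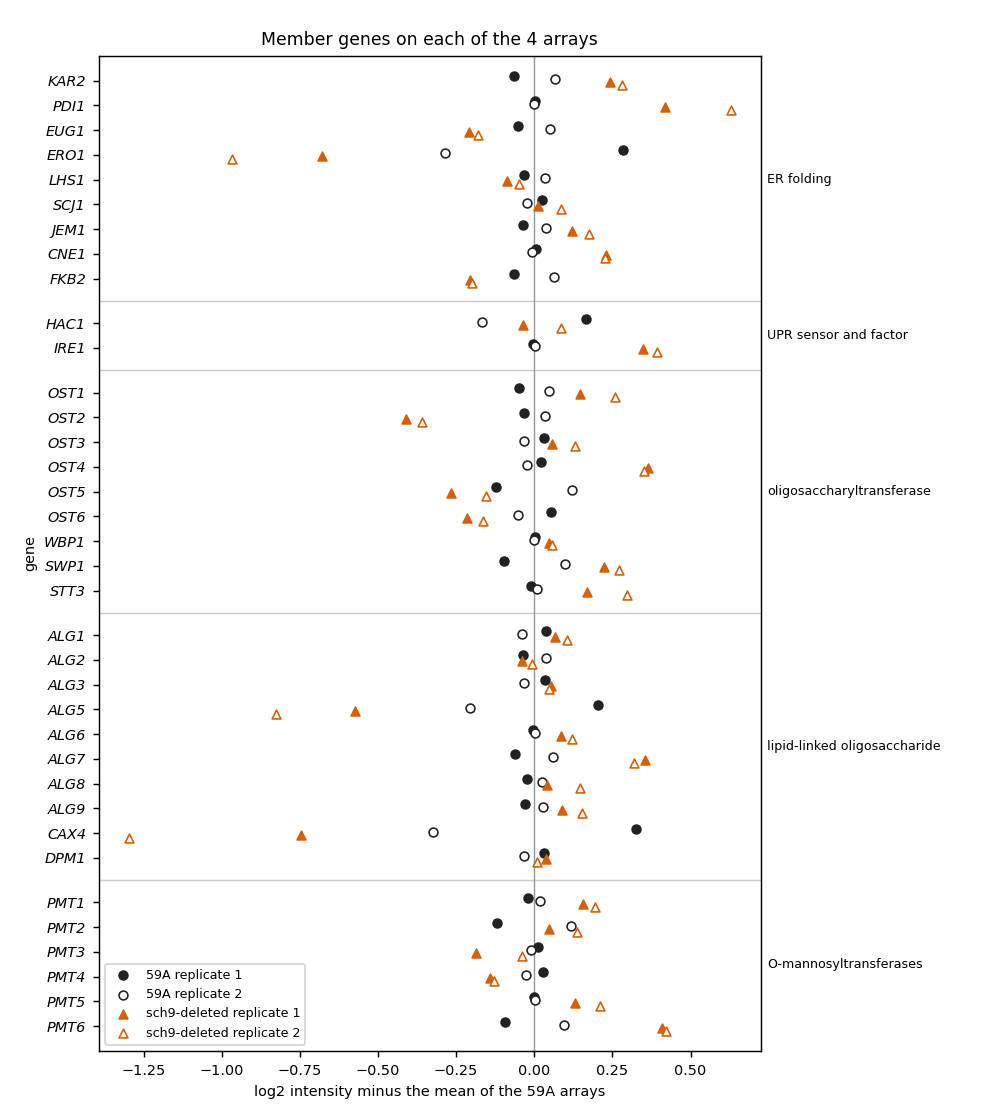
Log2 intensity of each of the 36 genes on each array (x axis), minus the mean of the 2 wild-type arrays of that gene, with 59A as circles and the mutant as triangles, filled for replicate 1 and open for replicate 2, grouped by function. Most genes lie within a narrow band around 0, and *CAX4*, *ERO1* and *ALG5* stand out on the left, each with replicate 1 to the right of replicate 2 in both strains.

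Among the genes of folding and disulfide formation, the oxidase and the isomerase of the disulfide pathway moved in opposite directions. *PDI1*, protein disulfide isomerase, read 12.31 in both arrays of 59A and 12.73 and 12.94 in the mutant arrays. It rose by 0.52 (standard error, SE, 0.09, adjusted p = 0.0180), with both mutant arrays above the wild type. *ERO1*, the thiol oxidase that reoxidises Pdi1p, read 11.27 and 10.70 in 59A and 10.30 and 10.02 in the mutant. Both mutant arrays were lower, and it fell by 0.82 (SE 0.21, adjusted p = 0.0409), although the wild-type arrays themselves differed by 0.57. The log FC of *ERO1* was -0.54 without wild-type replicate 1 and -1.11 without wild-type replicate 2. *EUG1*, a homologue of *PDI1*, had a log FC of -0.20 (SE 0.08, adjusted p = 0.116) and did not pass. Whether *PDI1* and *EUG1* differed in their response was not tested.

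The chaperones themselves did not pass. *KAR2* read 10.82 and 10.95 in 59A and 11.12 and 11.16 in the mutant. Both mutant arrays were higher, but the log FC of 0.26 (SE 0.08, adjusted p = 0.0676) missed the threshold. Its 95% confidence interval ran from 0.06 to 0.47. The intervals given here are for single genes and are not adjusted for the number of features, so one that excludes 0 is not a call. The partners of Kar2p were close to 0. *LHS1*, which encodes its nucleotide exchange factor of the Hsp70 type, had a log FC of -0.07, *SCJ1*, a J-domain co-chaperone, of 0.05 and *JEM1*, another one, of 0.15. *CNE1*, the calnexin of yeast, had 0.23 (SE 0.07, adjusted p = 0.0648) with wild-type values of 7.33 and 7.32 and 7.55 in both mutant arrays. *FKB2*, a peptidyl-prolyl isomerase, had -0.20. In this group of 9 genes 1 was lower, 1 higher and 7 without a call, and the median log FC was 0.05. Each direction held 11.1%, against 12.1% lower and 14.6% higher over all features.

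Of the sensor and the factor of the unfolded protein response, the sensor rose. *IRE1*, the transmembrane kinase and endonuclease that senses unfolded proteins, read 7.32 in both arrays of 59A and 7.67 and 7.71 in the mutant, an increase of 0.37 (SE 0.07, adjusted p = 0.0206). *HAC1*, the transcription factor whose messenger Ire1p splices, read 12.16 and 11.83 in 59A and 11.96 and 12.08 in the mutant. The mutant values fell between those of the wild type, and the log FC was 0.02 with a 95% confidence interval from -0.30 to 0.35. The sign of this value turned to -0.14 without wild-type replicate 2, to -0.04 without mutant replicate 2 and to -0.10 with slide position in the fit, so that no direction can be given. *HAC1* was measured by 1 probe, and spliced and unspliced messenger were not told apart. *PDI1*, *KAR2* and *ERO1* are among the known targets of Hac1p, and of them *PDI1* was higher, *KAR2* did not pass and *ERO1* was lower. The other members were not sorted into targets and genes that are not targets. How the targets moved as a set can therefore not be read from these genes.

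**Figure D2:**
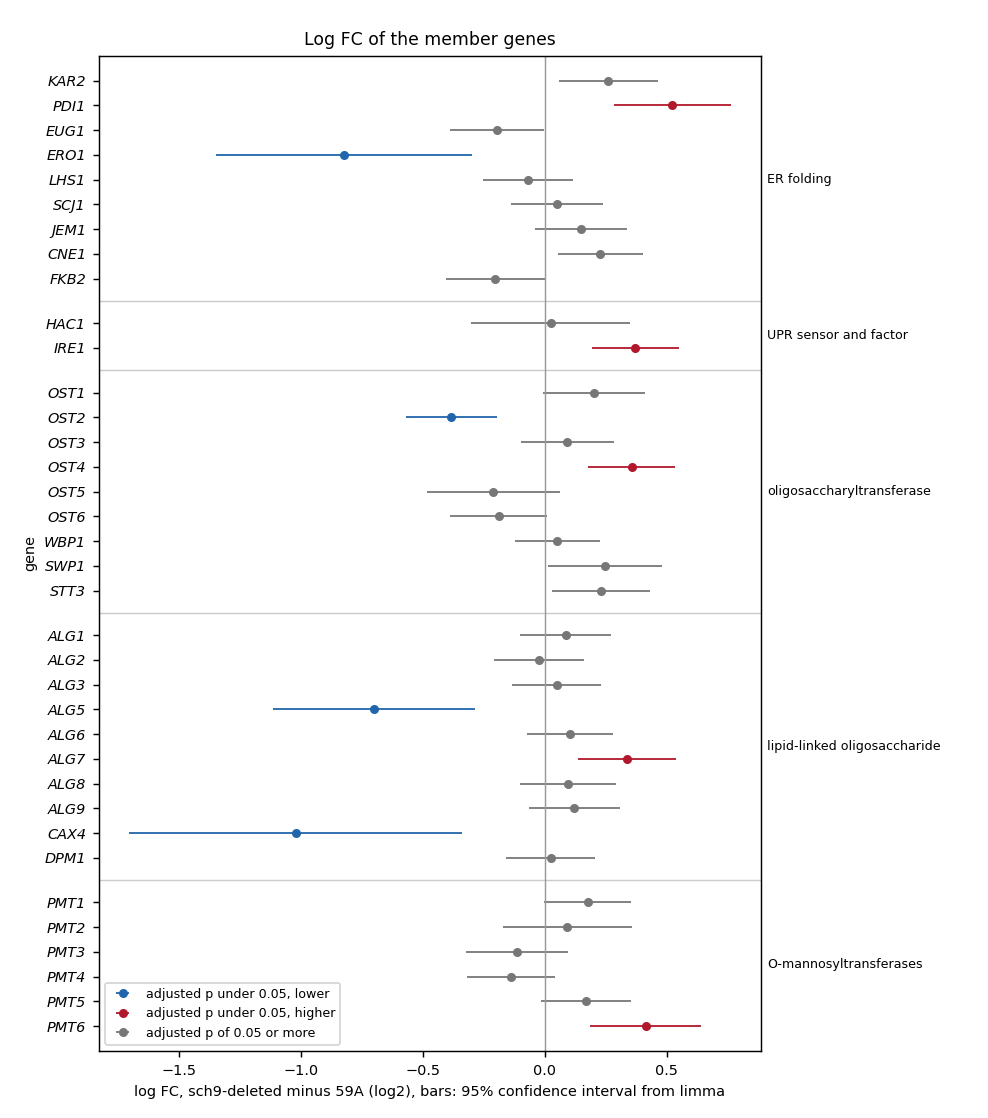
Log FC of the 36 genes (x axis, log2, sch9-deleted minus 59A) with the 95% confidence interval from limma as a bar, in blue for the 4 genes that were lower, in red for the 5 that were higher and in grey for the 27 that did not pass. The intervals of *CAX4*, *ERO1* and *ALG5* are the widest, and all grey points lie between -0.21 and 0.26. The intervals are not adjusted for the number of features, and some of the grey ones, such as that of *KAR2*, exclude 0.

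Oligosaccharyltransferase, the complex that transfers the finished glycan to asparagine, had 1 gene lower and 1 higher among its 9 subunits, and 7 did not pass. Each direction held 11.1%, against 12.1% lower and 14.6% higher over all features. The subunit that fell was *OST2*, an essential subunit, which read 10.26 and 10.33 in 59A and 9.89 and 9.94 in the mutant (log FC -0.38, SE 0.07, adjusted p = 0.0212). *OST4*, a very small subunit that helps to hold Stt3p and Ost3p together, read 9.30 and 9.26 in 59A and 9.65 and 9.63 in the mutant and rose by 0.36 (SE 0.07, adjusted p = 0.0223). In both genes the strains were apart by several times the difference between replicates. *STT3*, the catalytic subunit, read 10.07 and 10.09 in 59A and 10.25 and 10.38 in the mutant. Its log FC of 0.23 (SE 0.08, adjusted p = 0.0874) did not pass, nor did those of *SWP1* with 0.25 (adjusted p = 0.104) and *OST1* with 0.20 (adjusted p = 0.126). The remaining essential subunit, *WBP1*, had a log FC of 0.05. *OST3* and *OST6* encode alternative subunits with oxidoreductase activity, of which a complex holds one. *OST3* had 0.09 with a 95% confidence interval from -0.10 to 0.28, and *OST6* had -0.19 with one from -0.39 to 0.01, and whether the alternative subunits differed was not tested. *OST5*, a small accessory subunit, had -0.21. The arrays of the strains did not overlap in any of the 9 genes, with 6 higher and 3 lower in the mutant, beside 33.7% and 35.8% of all features.

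The enzymes that build the lipid-linked oligosaccharide were close to 0 along most of the chain, while genes of the supply of glucose and of the recycling of the carrier held 2 of the 3 lowest values among the 36 genes. *ALG7*, which starts the chain on dolichyl phosphate and is the target of tunicamycin, read 7.74 and 7.86 in 59A and 8.15 and 8.12 in the mutant. It rose by 0.34 (SE 0.08, adjusted p = 0.0343). The mannosyltransferases that follow did not pass. *ALG1*, which adds the first mannose, had a log FC of 0.09, *ALG2*, which adds the next ones on the cytosolic side, of -0.02, and *ALG3* and *ALG9*, which act in the lumen, of 0.05 and 0.12. The glucosyltransferases that finish the glycan were alike, *ALG6* with 0.10 and *ALG8* with 0.09, and so was *DPM1*, the synthase of dolichyl phosphate mannose, with 0.02. For these 7 genes no 95% confidence interval reached beyond -0.21 or 0.31.

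*ALG5*, the synthase of dolichyl phosphate glucose, which feeds *ALG6* and *ALG8*, read 7.52 and 7.11 in 59A and 6.74 and 6.48 in the mutant. Both mutant arrays were lower, and it fell by 0.70 (SE 0.16, adjusted p = 0.0331). On the mutant arrays *ALG5* lay in the dim part of the range, where its lowest value exceeded or equalled 14.1% of the probes. *CAX4*, the phosphatase that returns dolichyl pyrophosphate to the pool after transfer of the glycan, read 10.57 and 9.92 in 59A and 9.50 and 8.95 in the mutant. It fell by 1.02 (SE 0.27, adjusted p = 0.0459), with a 95% confidence interval from -1.71 to -0.34, which made it the lowest of the 36 genes. The log FC was -0.70 without wild-type replicate 1 and -1.35 without wild-type replicate 2. With robust hyperparameters in limma *CAX4* (adjusted p = 0.0585) and *ERO1* (adjusted p = 0.0521) did not pass. Of the 10 genes of this pathway 2 were lower (20% against 12.1% of all features) and 1 higher (10% against 14.6%). The other 7 did not pass, and the median log FC was 0.07.

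*CAX4*, *ERO1* and *ALG5* also differed between replicates in the same way, replicate 1 being higher than replicate 2 in each strain. The difference was 0.649 in 59A and 0.55 in the mutant for *CAX4*, 0.57 and 0.285 for *ERO1* and 0.41 and 0.254 for *ALG5*. None of the other 33 genes had a difference over 0.2 of the same sign in both strains, a size that was set after the values were seen. Over all features 4.77% showed replicate 1 higher by over 0.2 in both strains. This share was 16.2% among the 753 lower features, 0% among the 912 higher features and 3.84% among those that did not pass. Replicate 2 was higher by over 0.2 in both strains in 0.771% of all features. That share was 0% among the lower features, 1.32% among the higher ones and 0.789% among those that did not pass. The arrays with number 1 lay at slide positions 6 (wild type) and 4 (mutant) and those with number 2 at positions 1 and 7. The part of this difference between replicates in the lower values of the mutant was not tested. In a fit with replicate number as a block the adjusted p was 3.2e-05 for *CAX4*, 2.4e-04 for *ERO1* and 3.1e-04 for *ALG5* at the same log FC, and 4 genes were lower and 9 higher, *KAR2* (adjusted p = 0.0302), *CNE1* (0.0471), *SWP1* (0.0414) and *STT3* (0.0493) being added to the 5, while the share over all features was then 40.9%. Nothing in the labels ties cultures of the same number to each other.

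**Figure D3:**
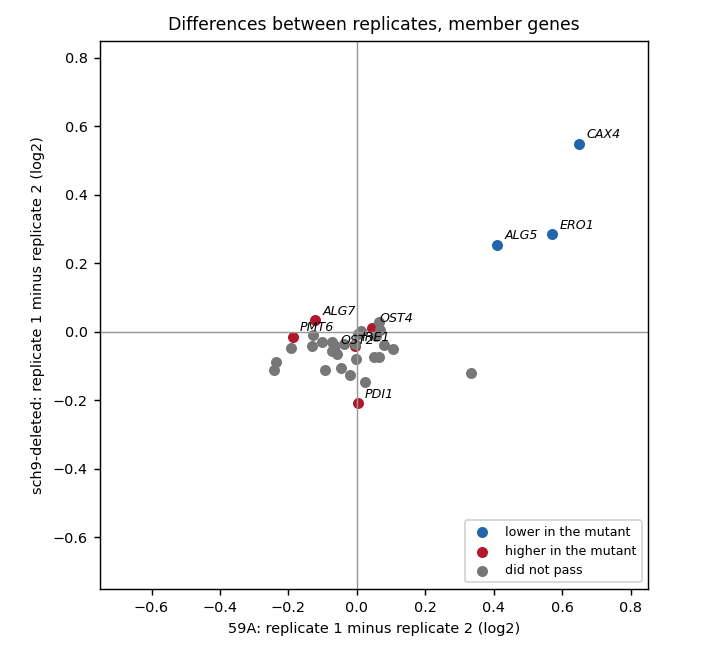
Difference between replicate 1 and replicate 2 in the wild type (x axis, log2) and in the mutant (y axis, log2) for each of the 36 genes, coloured by the call between strains and named where the gene passed. *CAX4*, *ERO1* and *ALG5*, lower in the mutant, lie alone in the upper right, while *OST2*, the remaining lower gene, lies near the origin with most of the genes.

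Of the 6 protein O-mannosyltransferases, which work as pairs of subunits, 1 was higher (16.7% against 14.6% of all features) and 0 lower (against 12.1%). The higher gene was *PMT6*. It read 8.53 and 8.72 in 59A and 9.03 and 9.05 in the mutant, and rose by 0.41 (SE 0.09, adjusted p = 0.0285). *PMT1* and *PMT2*, which form the main complex, did not pass. *PMT1* read 9.61 and 9.65 in 59A and 9.78 and 9.82 in the mutant, so that its log FC was 0.18 (SE 0.07, adjusted p = 0.125), and *PMT2* had 0.09 with overlapping arrays and a sign that turned to -0.03 without wild-type replicate 1. *PMT5*, a relative of *PMT1*, had 0.17, and *PMT3*, a relative of *PMT2* like *PMT6*, had -0.11. *PMT4*, which acts with itself and prefers membrane-bound proteins, had -0.14. The mean log2 values of the mutant were thus above the wild type in 4 of the 6 genes and below it in *PMT3* and *PMT4*, with a median of 0.13. *PMT1* and *PMT5* are next to each other in the yeast genome, as are *EUG1* and *FKB2*. The log FC of these neighbours were 0.18 and 0.17, and -0.20 and -0.20, and none of them passed. On their other sides, *RPN6* beside *PMT1* had -0.07, *SRP14* beside *PMT5* -0.20 and *GRH1* beside *EUG1* -0.14. Whether neighbours moved together was not tested.

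Other genes of the same pathways, 86 in all with *PMT7*, were looked up beside them, and 77 of these 86 were found on the array. Here the genes of entry into the ER lay mostly on the lower side. Of 21 genes of the translocation channels, the signal recognition particle and signal peptidase, 6 were lower (28.6% against 12.1% of all features), 1 was higher (4.76% against 14.6%) and 14 did not pass. A log FC below 0 was found in 20 of the 21 genes and in 3220 of the 6226 features, with a median of -0.24 against -0.01 over all features. The mutant was lower on both arrays in 19 of the 21 (90.5%), which held for 35.8% of all features. *SSS1*, the small subunit of the Sec61 channel, read 11.00 and 11.31 in 59A and 10.58 and 10.54 in the mutant (log FC -0.60, SE 0.12, adjusted p = 0.0230). *SBH2*, a subunit of the alternative Ssh1 channel, fell by 0.42 (SE 0.08, adjusted p = 0.0224) and *SEC65*, of the signal recognition particle, by 0.41 (SE 0.09, adjusted p = 0.0286). The gene that rose was *SEC61*, the channel itself, which read 9.81 and 10.05 in 59A and 10.26 and 10.44 in the mutant (log FC 0.42, SE 0.11, adjusted p = 0.0484). It no longer passed when the arrays were centred on their medians (adjusted p = 0.0533), normalised by quantiles again (adjusted p = 0.0534) or fitted with an intensity trend (adjusted p = 0.0510), nor without wild-type replicate 1 (adjusted p = 0.0580). With slide position as a covariate *SEC61* (adjusted p = 0.0795), *SBH2* (0.0642) and *SEC65* (0.0732) did not pass.

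In the lists nearest to the glycosylation genes single genes passed. In the supply of GDP-mannose, the donor of mannose, 1 of 6 genes was lower (16.7% against 12.1% of all features). The other 5 did not pass, 0 being higher (against 14.6%), and the median log FC was -0.17. *SEC53*, phosphomannomutase, read 9.91 and 9.54 in 59A and 8.99 and 8.80 in the mutant and fell by 0.83 (SE 0.15, adjusted p = 0.0165). Replicate 1 was the higher in both strains, by 0.37 in 59A and by 0.187, under the size of 0.2 used above, in the mutant. Of 7 other genes of dolichol and the lipid-linked oligosaccharide, 1 was lower and 1 higher, and 5 did not pass. Each direction held 14.3%, against 12.1% lower and 14.6% higher over all features. *SRT1*, a cis-prenyltransferase of dolichol synthesis, read 6.49 and 6.47 in 59A and 7.68 and 7.72 in the mutant. Its increase of 1.22 (SE 0.07, adjusted p = 7.8e-04) exceeded every value among the 36 genes, whereas *RER2*, the other cis-prenyltransferase, had -0.16. On the wild-type arrays *SRT1* lay in the dim part of the range, where its lowest value exceeded or equalled 14.1% of the probes. It was not tested with the dimmest features left out. *SEC59*, dolichol kinase, fell by 0.34 (SE 0.09, adjusted p = 0.0448) and did not pass with scaling to the 75th percentile (adjusted p = 0.0509) or with slide position as a covariate (adjusted p = 0.118).

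Among the genes of quality control and of the Golgi, few passed. Of 15 genes of the glucosidases, the mannosidases and ER-associated degradation, which removes misfolded proteins, 0 were lower, 3 higher (20% against 14.6% of all features) and 12 without a call, and the median log FC was 0.05. *MNL1*, a mannosidase that marks misfolded glycoproteins, read 9.27 and 9.28 in 59A and 10.19 and 10.35 in the mutant, an increase of 1.00 (SE 0.08, adjusted p = 0.00257). *UBX2*, which recruits Cdc48p to the ER ligases and is named *SEL1* in the array annotation, rose by 0.42 (SE 0.09), and *USA1*, a scaffold of the Hrd1 ligase, by 0.41 (SE 0.07), while *HRD1* itself had 0.03 and *DER1* -0.03. Of 7 other ER folding and oxidation genes 1 was lower (14.3% against 12.1% of all features), 0 higher and 6 without a call. It was *SHR3*, a packaging chaperone of amino acid permeases, with -0.45 (SE 0.07, adjusted p = 0.0144). Of 21 mannosyltransferase genes of the Golgi, 1 was lower (4.76% against 12.1% of all features), 2 higher (9.52% against 14.6%) and 18 without a call, and the median was -0.02. *MNN4*, which promotes the addition of mannosylphosphate, rose by 0.48 (SE 0.11) and *OCH1*, which starts the outer chain of N-glycans, by 0.46 (SE 0.11), while *HOC1*, of a Golgi mannan polymerase, fell by 0.33 (SE 0.07). *KRE2*, which extends O-linked and N-linked chains, had 0.13. Of the 14 passing genes named from these lists, *SRT1* (adjusted p = 0.0112 and 0.0137 without mutant replicates 1 and 2) and *MNL1* (0.0143 and 0.0283) passed whichever mutant array was left out. *SEC53* passed without mutant replicate 1 (0.0486) and not without replicate 2 (0.116), and the other 11 did not pass when either was left out. With slide position as a covariate *USA1* (adjusted p = 0.0561), *MNN4* (0.0578), *OCH1* (0.0671), *UBX2* (0.0676) and *HOC1* (0.0844) did not pass either, and of the 14 genes *SRT1*, *MNL1*, *SEC53*, *SSS1* and *SHR3* did.

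**Figure D4:**
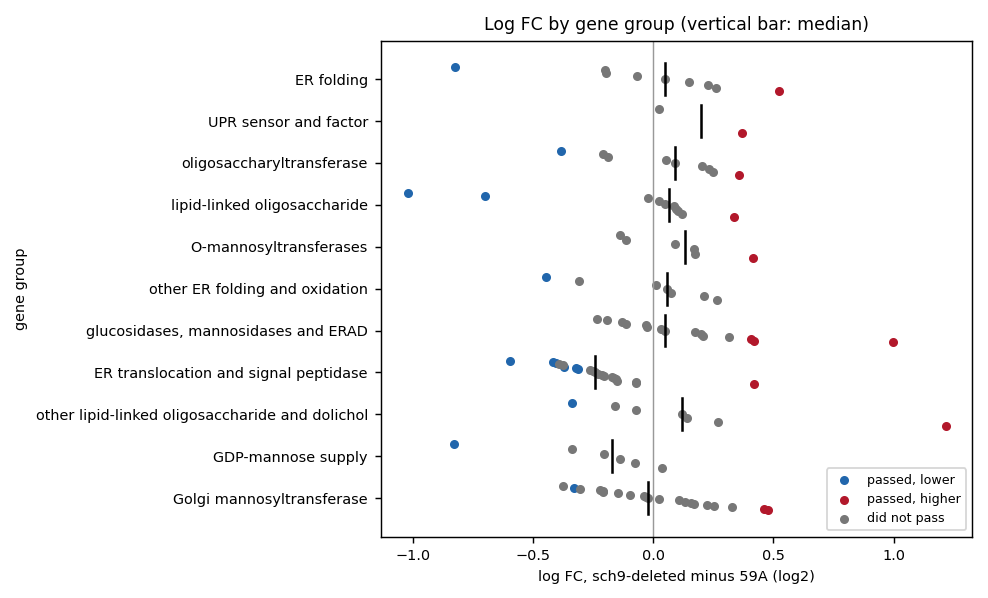
Log FC (x axis, log2, sch9-deleted minus 59A) of every measured gene in the groups of the 36 genes (the upper 5 rows) and in the other pathway lists (the lower 6 rows), in blue or red where the gene passed and grey where it did not, with the median as a vertical bar. The translocation list lies to the left of 0 apart from *SEC61*, while *SRT1* and *MNL1* lie farthest to the right.

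The share of the 36 genes that passed was near or below that of all features under each processing tried. With scaling to the 75th percentile, for example, it was 25% against 26.2%. The processings reuse the same 4 arrays, so they are not separate observations of a lower share. With slide position as a covariate 4 of the 36 genes passed, *ERO1*, *ALG5*, *PDI1* and *PMT6*, or 11.1% against 16.6% of all features. When 1 wild-type array was left out, the share that passed rose both among the 36 genes and over all features. The median log FC of the 36 genes was then 0.09 without wild-type replicate 1 and 0.06 without wild-type replicate 2. In fits with 1 array left out the strain with 1 array left was assumed to vary like the other. None of the 9 genes that passed changed its direction under any processing tried. This was largely fixed beforehand, because the arrays of the strains did not overlap in any of the 9. Leaving out 1 array could therefore not turn a sign, and fits that change only the variance keep the log FC.

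**Figure D5:**
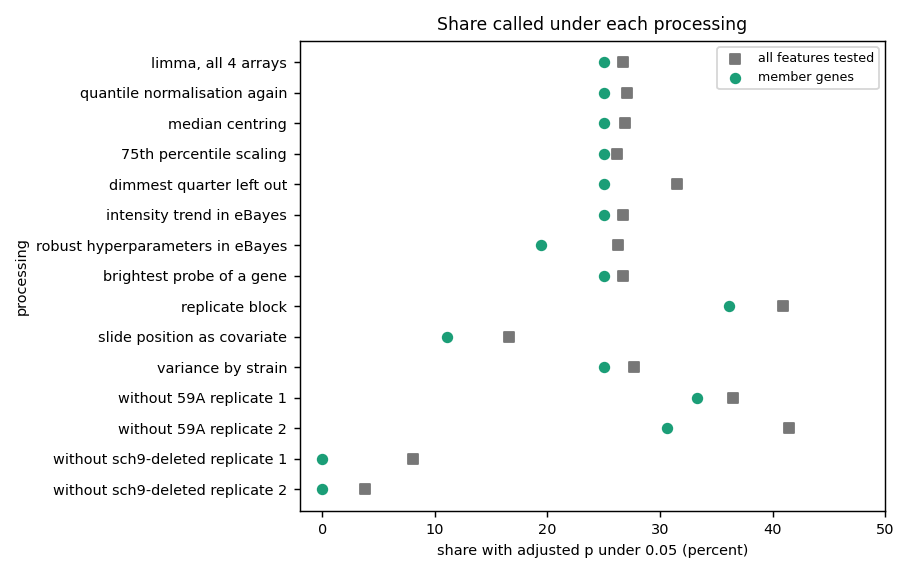
Share of the 36 genes (green circles) and of all features tested (grey squares) with an adjusted p under 0.05 (x axis, percent) under each processing (y axis). The share of the 36 genes was 25% with all 4 arrays against 26.7% of all features. It was near or below the share of all features under every processing shown, each of which reuses the same arrays.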

How the data were processed

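Gene expression was measured on 4 one-colour Agilent yeast arrays, all on slide 1, 2 of 59A and 2 of its sch9-deleted mutant. The authors hybridised Cy3-labelled RNA, read the spots with GenePix, used limma (R 2.14.2 in the labels) for quantile normalisation of the arrays, and deposited log2 intensities with 1 value for each of 6227 probes. The sources used here do not give the background correction or how spots were combined, and dim spots carry no mark.

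The array annotation names 4061 probes by 1 gene symbol. Listed genes were matched by symbol or by a RefSeq synonym (assembly R64, used for names and neighbours only), and the probes of a gene were averaged, which left 6226 features. The strains were compared with limma 3.58.1 in R 4.3.3 (lmFit, eBayes, prior degrees of freedom 3.29, residual 2), with Benjamini-Hochberg adjustment over all features and a threshold of 0.05. An exact two-sided permutation test of 2 against 2 arrays cannot go below p = 0.333, which is why calls depend on limma's pooled variance. The code of the fit was run on simulated data with independent noise. Such data lack the deviations that same-numbered arrays share here, so that run does not show how reliable the calls are. The genes, lists and tests were chosen with earlier results of these data known. The text names all 36 genes and up to 4 passing genes of each other list by size of log FC, and genes that did not pass in those lists were named after their values were seen. Alternatives were another normalisation (quantile, median, 75th percentile), the dimmest 0.25 of the features left out, an intensity trend, robust hyperparameters or a variance for each strain, the brightest probe, slide position, the replicate number as a block, each array left out in turn, unadjusted p and the fold threshold of the methods. Python 3.11.15 with matplotlib 3.10.9 drew the plots.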

Additional observations from a re-analysis of the deposited data

How the results depend on the processing

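Of the 36 genes 4 were lower and 5 higher. With robust hyperparameters 2 were lower, with slide position 2 were lower and 2 higher, with the replicate number as a block 9 were higher, at unadjusted p 9 were higher, and with a log FC beyond 1 required 1 was lower and 0 were higher. Over all features, 753 were lower and 912 higher. The replicate block gave 1311 lower and 1238 higher features, and slide position gave 445 and 586. Unadjusted p gave 1307 and 1313, and the fold threshold 102 and 136. With 1 array left out the range was 0 to 7 lower and 0 to 7 higher genes, and 58 to 1268 lower and 179 to 1313 higher features. Deviations of same-numbered arrays had a correlation of 0.531 over all features and 0.745 over the 36 genes, which are not independent, and with 2 numbers this does not show that they pair the cultures. The sign turned in *HAC1*, to -0.10 with slide position and over a range from -0.14 to 0.19 with 1 array left out. With 1 array left out it also turned in *ALG2* (from -0.059 to 0.013), in *DPM1* (from -0.0082 to 0.056) and in *PMT2* (from -0.027 to 0.21), none of which passed. The causes were not tested. The median log FC of the 36 genes lay between 0.05 and 0.11 under the alternatives. For *ALG5* and the other dim genes the signal over background limits the size of a fall that can be seen.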
